A study of Mus musculus with 27 samples.

Results

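Collagen genes were examined in frontal cortex and striatum of wild-type mice and mice that lack an Igf2 enhancer. They were taken as the protein-coding mouse genes with a symbol of the form Col, a number, a and a number, and a mean of at least 0.1 CPM (counts scaled to a common library total) in at least 1 region. Of the 44 such symbols among the 52636 gene identifiers of the count tables, 43 met this level, and Col10a1 did not. The 43 genes fell into 11 fibrillar genes (types 1, 2, 3, 5, 11, 24 and 27), 6 basement membrane genes (type 4) and 26 genes of other types.

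Collagens are proteins of the extracellular matrix in which 3 chains wind into a helix. Fibrillar collagens assemble into the fibrils of connective tissue, and in the brain they are known mainly from the meninges and the walls of larger vessels. Type 4 collagens form the sheet-like network of basement membranes, which surrounds brain capillaries and underlies the pial surface. The other types include type 6 microfibrils, the FACIT collagens that attach to fibril surfaces, type 8 networks, the multiplexins of basement membrane zones and transmembrane collagens, of which some are made by neurons.

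The samples were RNA libraries of 129S1 mice of about 2.5 months of age. Igf2enh-/- mice are homozygous for the loss of 4.9 kb of sequence between H19 and Igf2 (chr7:149796331-149801250, mm9), with a loxP site left in its place after a Cre transgene had removed the selection cassette. There were 12 frontal cortex libraries, 6 per genotype with the sexes equal in number, and 15 striatal libraries, of which 7 were wild type (3 female, 4 male) and 8 Igf2enh-/- (4 female, 4 male). The deletion lies outside genes, so no gene count checks it directly, and the labels do not tie the libraries of the regions to the same mouse. They list each library as a separate sample but do not number the mice, so the tests measure the spread between libraries. The number at the start of a library's title serves as its name.

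Libraries held 23686945 to 33926904 counts, so that 0.1 CPM stood for 2.37 to 3.39 counts. Markers went with the labelled regions: Ppp1r1b, a signalling protein of striatal medium spiny neurons, ran from 912 to 2415 CPM in striatum and from 39.7 to 80.3 CPM in frontal cortex. Slc17a7, the vesicular glutamate transporter of cortical projection neurons, ran from 1471 to 1689 CPM in frontal cortex and from 13.8 CPM (library 22) to 748 CPM (library 20) in striatum. Library 15, an Igf2enh-/- striatum, stood apart with 3063 CPM of Ttr, the transthyretin of choroid plexus, while Ttr lay between 5.46 and 105.6 CPM elsewhere in striatum, with library 19 the next highest. For several collagen results named below that changed with library 15, the value without that library stands beside them. In such bulk samples, fewer cells of a type and less RNA per cell cannot be told apart.

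Levels of different genes were compared as CPM divided by the length in kb of the longest protein-coding transcript. On this scale Col4a2 was the highest collagen gene in frontal cortex, with a median of 17.6 CPM per kb (14.7 to 21.2 over 12 libraries). It was followed by Col25a1 (median 14.4), a transmembrane collagen made by neurons, Col6a1 (12.7) and Col4a1 (11.7). In striatum the order began with Col6a1, at a median of 37.2 CPM per kb (16.0 to 53.2 over 15 libraries), ahead of Col4a2 (11.8), Col25a1 (9.03), Col11a2 (8.90) and Col4a1 (8.89). Ranges of neighbours in this order overlapped in 41 of 42 pairs in each region. The exceptions were Col4a1 over Col1a2 in frontal cortex and Col6a1 over Col4a2 in striatum. At the low end stood Col4a3, Col2a1 and Col4a4, with medians of 0.0619, 0.0642 and 0.111 CPM per kb in frontal cortex, and of 0.0680, 0.0950 and 0.0984 in striatum. The smallest count of any collagen gene in a library was 3, for Col2a1, the collagen of cartilage, so that the values of these genes carry a wide counting error.

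**Figure D1:**
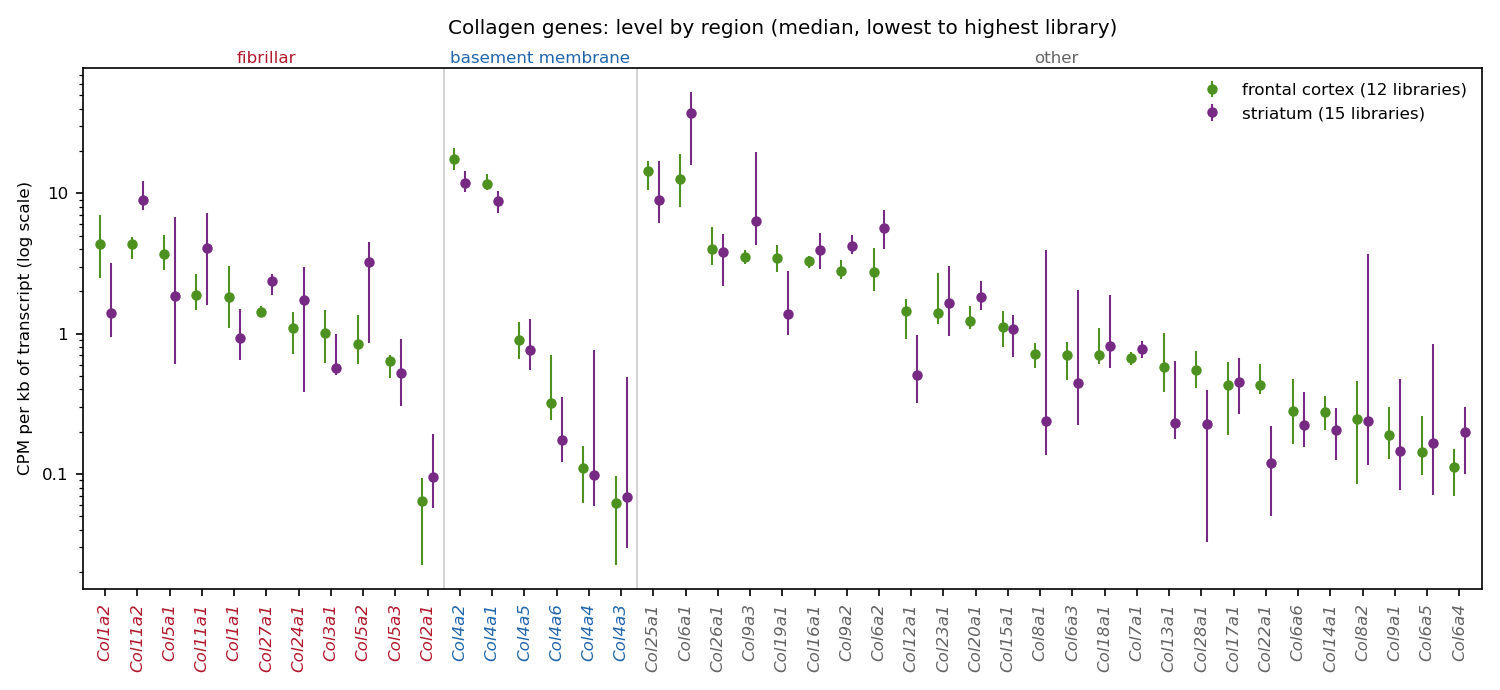
Levels of the 43 collagen genes in frontal cortex (green) and striatum (purple), in CPM per kb of transcript on a log scale; points are medians and bars run from the lowest to the highest library. Col4a2 leads in frontal cortex at 17.6 and Col6a1 in striatum at 37.2 CPM per kb, and the long bars of Col8a1, Col8a2, Col4a3 and Col4a4 in striatum end at library 15.

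Summed over genes on the per-kb scale, collagens came to a median of 110 CPM per kb in frontal cortex (101 to 128) and 133 in striatum (96.6 to 166). The 6 basement membrane genes held a median of 27.7% of this sum in frontal cortex (24.6% to 31.7%) and 16.9% in striatum (13.3% to 19.6%), and the ranges of the regions did not overlap. The 11 fibrillar genes held 19.5% in frontal cortex (18.1% to 20.1%) and 20.0% in striatum (17.6% to 23.3%). The 6 type 6 genes held 14.9% in frontal cortex (10.7% to 19.0%) and 33.9% in striatum (21.5% to 44.3%). The regions were apart in this share as well, and most of the type 6 sum was Col6a1.

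Whether levels differed between the regions was tested over all 27 libraries, with genotype, sex and the region by genotype term in the model (edgeR's quasi-likelihood test with Benjamini-Hochberg adjustment over 22982 genes). Of the 43 collagen genes, 14 were higher in striatum and 16 higher in frontal cortex at an adjusted p under 0.05, and 13 did not pass. Over all genes tested, 63.7% passed, 32.2% as higher in striatum and 31.5% as higher in frontal cortex, beside 32.6% and 37.2% of the collagen genes. The share of collagen genes that differed was thus near that of all genes, and the median log2 fold change (striatum over frontal cortex) was -0.09 for collagen genes and 0.01 for all genes. What differed within the family was which genes went which way: the 11 fibrillar genes all passed, 6 as higher in striatum and 5 in frontal cortex, 4 of the 6 basement membrane genes were higher in frontal cortex and 0 in striatum, and the other types split into 8 and 7 with 11 that did not pass. Library ranges of the regions did not overlap for 8 collagen genes, 4 in each direction, beside 18.6% of all genes.

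**Figure D2:**
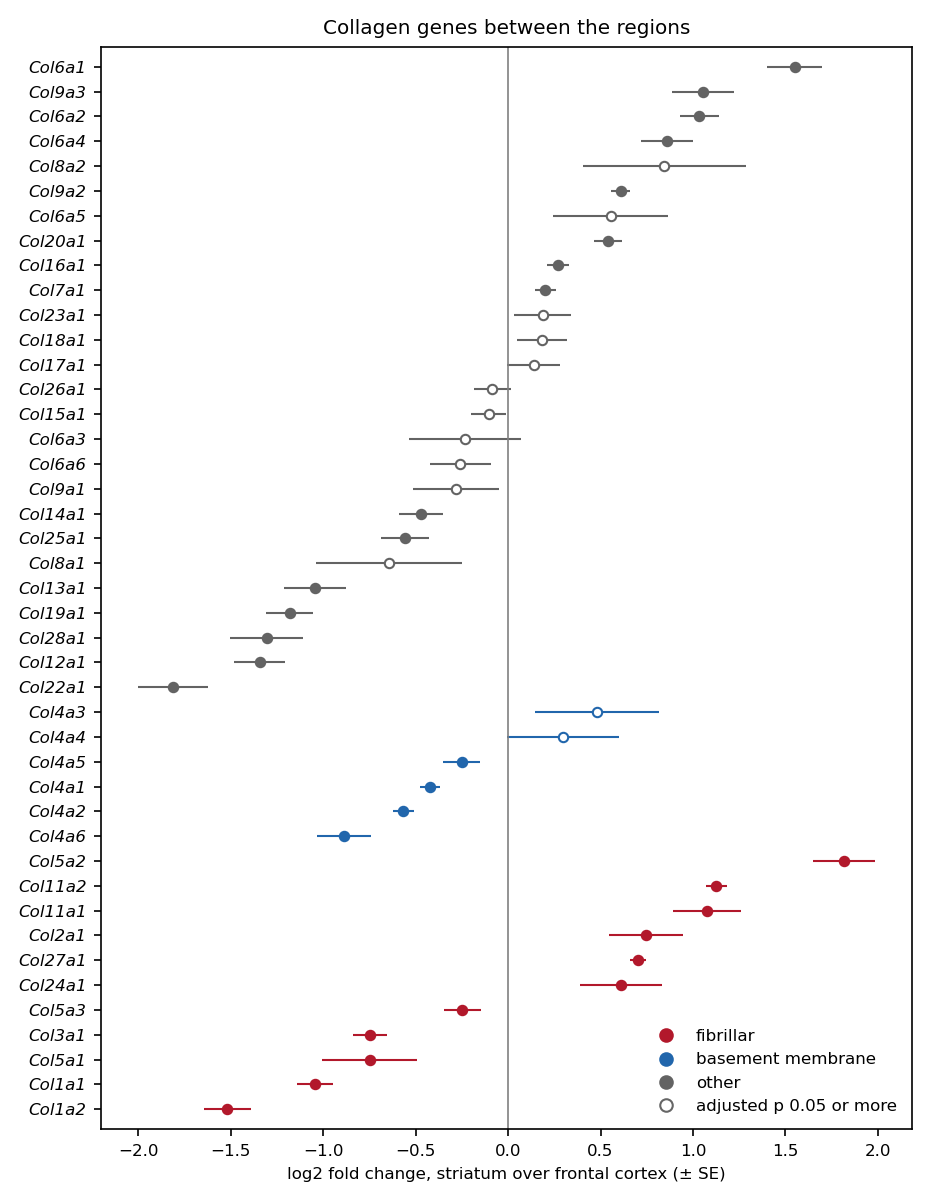
Log2 fold change of each collagen gene, striatum over frontal cortex, with its standard error, ordered within the fibrillar (red), basement membrane (blue) and other (grey) genes; filled points passed an adjusted p of 0.05. Fibrillar genes lie on both sides, from -1.52 for Col1a2 to 1.82 for Col5a2, while the filled basement membrane points all lie left of 0.

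Among the fibrillar genes, those of types 1 and 3 were higher in frontal cortex. Col1a1 and Col1a2 encode the chains of type 1 collagen, the main fibril of meninges and bone. Col1a2 ran from 13.3 to 37.5 CPM in frontal cortex (median 23.1) and from 5.08 to 17.1 CPM in striatum (median 7.44), with library 1 highest in frontal cortex and library 15 highest in striatum. Its log2 fold change was -1.52 ± 0.13 (SE), adjusted p = 5.22e-11. Without library 15 the highest striatal value was 9.09 CPM, and the ranges no longer touched. Col1a1 ran from 6.52 to 17.9 CPM in frontal cortex (median 10.9) and from 3.85 to 8.96 CPM in striatum (median 5.54), a log2 fold change of -1.05 ± 0.10, adjusted p = 4.01e-10. Col3a1, the chain of type 3 collagen found in vessel walls and other pliable tissue, ran from 3.46 to 8.25 CPM in frontal cortex (median 5.66) and from 2.82 to 5.49 CPM in striatum (median 3.15), and its log2 fold change was -0.75 ± 0.09, adjusted p = 4.07e-08. In all 3 genes the highest striatal library was library 15, and without it the log2 fold changes were -1.61, -1.09 and -0.80. The 20 meningeal fibroblast markers, among them the proteoglycan gene Dcn, were all higher in frontal cortex by the same test, and their summed level ran from 125 to 244 CPM there and from 47.7 to 129 CPM in striatum, with library 15 the highest and the next at 70.0 CPM. Their part in the difference in types 1 and 3 was not tested.

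Col5a2 went the other way. It encodes a chain of type 5 collagen, which is built into type 1 fibrils, and it lies 24.6 kb from Col3a1 on chromosome 1. Col5a2 ran from 4.00 to 9.00 CPM in frontal cortex (median 5.56) and from 5.71 to 29.6 CPM in striatum (median 21.6), and the striatal libraries were above 13.0 CPM except library 20. The log2 fold change was 1.82 ± 0.17, adjusted p = 3.05e-10. Its partner chain Col5a1 ran from 23.9 to 42.7 CPM in frontal cortex and more widely in striatum, from 5.08 CPM in library 22 to 56.8 CPM in library 20, with a log2 fold change of -0.75 ± 0.26, adjusted p = 0.0133. Per kb, the ratio of Col5a1 to Col5a2 had a median of 4.34 in frontal cortex (3.09 to 8.30) and 0.512 in striatum (0.235 to 7.83), the highest in library 20. Library 20 also held the highest sum of the 10 cortical projection neuron markers among striatal libraries, 1373 CPM against 164 CPM in library 22, the lowest. The part of this in the spread of Col5a1 and Col5a2 was not tested. Col5a3, a further type 5 chain, was higher in frontal cortex by a smaller fold (-0.25 ± 0.10, adjusted p = 0.0314), a call lost without library 1, 5, 10, 12, 14 or 17.

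The type 11 genes, whose chains form thin fibrils of cartilage, were higher in striatum. Col11a2 ran from 20.5 to 29.3 CPM in frontal cortex (median 26.2) and from 45.9 to 73.5 CPM in striatum (median 53.9). The ranges were apart, and the log2 fold change was 1.13 ± 0.06, adjusted p = 1.13e-15, the smallest p of any collagen gene. Col11a1 differed by 1.08 ± 0.18 (adjusted p = 9.68e-06), but its striatal values spread from 12.3 CPM in library 22 and 12.4 CPM in library 14 to 55.3 CPM in library 19, and 2 libraries thus stood within the frontal cortex range of 11.3 to 20.4 CPM. Col27a1, a fibrillar collagen of developing cartilage, ran from 10.0 to 12.0 CPM in frontal cortex and from 14.3 to 20.4 CPM in striatum, again without overlap, with a log2 fold change of 0.70 ± 0.04, adjusted p = 3.69e-14. Col24a1 (0.61 ± 0.22, adjusted p = 0.0185) and Col2a1 (0.75 ± 0.20, adjusted p = 0.00203) also passed. In wild-type libraries alone the adjusted p of these 2 genes was 0.353 and 0.181, and Col24a1 also did not pass without library 16. Col24a1 ran from 5.07 to 10.2 CPM in frontal cortex and from 2.75 to 21.4 CPM in striatum. Libraries 14, 22, 24 and 13 stood lowest in striatum, at 2.75, 3.60, 6.40 and 7.32 CPM. Their sums of cortical projection neuron markers were 184, 164, 287 and 288 CPM, against 934 CPM in library 16, the highest for Col24a1. Library 20, with the highest sum, stood at 15.8 CPM. The part of these markers in the spread of Col24a1 and Col11a1 was not tested.

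To show the sequence before genes that went in opposite directions, the 250 bases upstream of the annotated start are given for Col1a2 and Col3a1, higher in frontal cortex, and for Col11a2 and Col6a1, higher in striatum. They are from RefSeq (GRCm38.p6), 5′ to 3′ on the strand of the gene, and capitals mark the CCAAT box, the Sp1-type letters GGGCGG, and the TATA box letters TATAAA, each on either strand. The windows are chr6:4505368-4505617 (plus strand), chr1:45311288-45311537 (plus), chr17:34038888-34039137 (plus) and chr10:76726045-76726294 (minus).
Col1a2: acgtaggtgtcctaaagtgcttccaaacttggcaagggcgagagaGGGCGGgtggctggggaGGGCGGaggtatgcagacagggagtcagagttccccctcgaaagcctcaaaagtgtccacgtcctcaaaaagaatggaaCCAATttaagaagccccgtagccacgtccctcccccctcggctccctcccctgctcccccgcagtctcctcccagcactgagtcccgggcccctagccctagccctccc
Col3a1: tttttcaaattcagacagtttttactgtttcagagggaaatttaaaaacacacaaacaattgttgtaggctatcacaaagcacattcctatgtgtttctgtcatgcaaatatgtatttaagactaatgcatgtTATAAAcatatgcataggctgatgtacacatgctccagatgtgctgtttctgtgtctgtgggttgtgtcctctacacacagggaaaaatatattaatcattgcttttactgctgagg
Col11a2: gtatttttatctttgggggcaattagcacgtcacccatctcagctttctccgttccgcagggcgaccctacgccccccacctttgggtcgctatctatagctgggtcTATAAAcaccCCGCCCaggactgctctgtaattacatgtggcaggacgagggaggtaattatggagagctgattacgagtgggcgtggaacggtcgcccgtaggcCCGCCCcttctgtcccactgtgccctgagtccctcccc
Col6a1: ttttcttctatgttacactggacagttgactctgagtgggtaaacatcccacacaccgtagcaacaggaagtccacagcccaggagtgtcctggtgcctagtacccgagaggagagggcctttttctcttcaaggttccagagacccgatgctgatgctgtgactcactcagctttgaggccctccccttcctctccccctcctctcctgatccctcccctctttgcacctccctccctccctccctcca

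A window was at hand for 34 of the 43 collagen genes. CCAAT, on either strand, stood in 11 of these (32.4%, against 33.8% of all 32851 windows), GGGCGG in 20 (58.8%, against 32.7%) and TATAAA in 4 (11.8%, against 12.4%). Col6a1 holds none of the 3 in the window shown. A match is a description of the letters and not of a bound factor.

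Basement membrane genes were higher in frontal cortex or did not pass. The type 4 genes lie in head-to-head pairs: Col4a1 with Col4a2 on chromosome 8, Col4a3 with Col4a4 on chromosome 1 and Col4a5 with Col4a6 on the X chromosome. Col4a1 and Col4a2 encode the chains of the common type 4 network of vessels. Col4a2 ran from 94.6 to 137 CPM in frontal cortex (median 114) and from 65.6 to 93.1 CPM in striatum (median 76.1), without overlap, and its log2 fold change was -0.57 ± 0.06, adjusted p = 1.21e-09. Col4a1 ran from 70.2 to 90.2 CPM in frontal cortex (median 77.3) and from 47.8 to 69.0 CPM in striatum (median 58.8), also apart, with a log2 fold change of -0.42 ± 0.06, adjusted p = 1.97e-07. Per kb, the ratio of Col4a1 to Col4a2 had a median of 0.681 in frontal cortex (0.584 to 0.723) and 0.743 in striatum (0.659 to 0.805). The summed level of 16 endothelial markers ran from 458 to 550 CPM in frontal cortex and from 439 to 603 CPM in striatum. Of these 16 markers 2 were higher in each region, beside 32.2% of all genes in striatum and 31.5% in frontal cortex. Of 15 pericyte and smooth muscle markers 5 were higher in striatum and 2 in frontal cortex. Their sum ran from 285 to 352 CPM in frontal cortex and from 276 to 399 CPM in striatum. The part of either list in the type 4 values was not tested. The RefSeq promoter windows of Col4a1 and Col4a2 share 78 bases (chr8:11312777-11312854, GRCm38.p6), and their exons overlap on opposite strands, so counts near the start can belong to either gene if strand was not used.

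Col4a5 and Col4a6, whose chains are found in the basement membranes of kidney, skin and smooth muscle, were both lower in striatum. Col4a6 ran from 1.62 to 4.68 CPM in frontal cortex (median 2.13) and from 0.808 to 2.36 CPM in striatum (median 1.17), a log2 fold change of -0.89 ± 0.15, adjusted p = 6.61e-06, and -0.97 without library 15, the highest in striatum. Col4a5 differed by -0.25 ± 0.10, adjusted p = 0.0326, a call lost when any 1 of 9 libraries was left out (1, 2, 9, 10, 13, 14, 16, 18 or 24). Col4a3 and Col4a4, the chains of the kidney filter's basement membrane, had medians of 0.529 and 0.866 CPM in frontal cortex and of 0.582 and 0.768 CPM in striatum. Their log2 fold changes of 0.48 ± 0.34 (adjusted p = 0.220) and 0.30 ± 0.30 (adjusted p = 0.413) did not pass, and without library 15, where they stood at 4.16 and 5.93 CPM, they were 0.10 ± 0.20 and -0.09 ± 0.16.

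Of the 6 type 6 genes, which encode the chains of beaded microfibrils, 3 were higher in striatum and 0 in frontal cortex. Col6a1 ran from 33.0 to 78.3 CPM in frontal cortex (median 52.2) and from 65.8 CPM in library 22 to 218 CPM in library 24 in striatum (median 152), with a log2 fold change of 1.55 ± 0.15, adjusted p = 5.28e-10. Col6a2 followed it, with 9.31 to 18.9 CPM in frontal cortex (median 12.7) and 18.6 to 35.5 CPM in striatum (median 26.2), a log2 fold change of 1.03 ± 0.11, adjusted p = 1.86e-09. Col6a4 differed by 0.86 ± 0.14 (adjusted p = 5.82e-06) at levels of at most 2.25 CPM. Col6a3, the chain that joins the products of Col6a1 and Col6a2 in classical type 6 collagen, did not pass (-0.23 ± 0.30, adjusted p = 0.523). Its striatal values ran from 1.96 to 17.9 CPM, with 17.9 CPM in library 19 and 16.3 CPM in library 26, against 4.07 to 7.62 CPM in frontal cortex. Per kb, the ratio of Col6a3 to Col6a1 had a median of 0.0536 in frontal cortex and 0.0107 in striatum.

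The 9 FACIT genes went in both directions, 4 higher in each region. Col9a2 and Col9a3 encode chains of type 9 collagen, which coats cartilage fibrils. Col9a2 ran from 7.19 to 9.71 CPM in frontal cortex and from 10.9 to 14.8 CPM in striatum, without overlap, and its log2 fold change was 0.61 ± 0.05, adjusted p = 4.32e-11. Col9a3 was apart as well, from 9.50 to 12.0 CPM and from 12.9 to 59.9 CPM, the highest value being library 15. Its log2 fold change was 1.05 ± 0.17 (adjusted p = 2.84e-06), and without that library 0.86 ± 0.07 (adjusted p = 3.14e-11). Col16a1 and Col20a1 were higher in striatum by 0.27 ± 0.06 and 0.54 ± 0.07.

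Higher in frontal cortex were Col12a1, Col14a1, Col19a1 and Col22a1. Col12a1, a FACIT collagen of dense connective tissue, ran from 10.6 to 20.3 CPM in frontal cortex (median 16.7) and from 3.68 to 11.2 CPM in striatum (median 5.87), with library 20 the highest there, a log2 fold change of -1.34 ± 0.14, adjusted p = 1.84e-09. Col22a1, known from tissue junctions, ran from 3.26 to 5.32 CPM in frontal cortex and from 0.444 to 1.93 CPM in striatum, without overlap. Its log2 fold change of -1.81 ± 0.19 (adjusted p = 3.10e-09) was the lowest of the 43 genes. Col19a1, which is made by interneurons, ran from 11.7 to 18.1 CPM in frontal cortex (median 14.7) and from 4.16 to 11.9 CPM in striatum (median 5.89), a difference of -1.18 ± 0.13, adjusted p = 5.66e-09.

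Of the 4 transmembrane genes, Col13a1 (-1.04 ± 0.17, adjusted p = 4.79e-06) and Col25a1 (-0.56 ± 0.13, adjusted p = 5.20e-04) were higher in frontal cortex, and Col17a1 and Col23a1 did not pass. Col13a1 stood at 2.03 CPM in library 15 and reached 1.18 CPM in the other striatal libraries. Col25a1 ran from 70.5 to 114 CPM in frontal cortex and from 41.2 to 115 CPM in striatum, with libraries 26 and 19 the highest there. Col28a1 ran from 1.73 to 3.19 CPM in frontal cortex and from 0.138 to 1.67 CPM in striatum, with a log2 fold change of -1.31 ± 0.20, adjusted p = 1.73e-06. The multiplexins Col15a1 (-0.11 ± 0.09) and Col18a1 (0.18 ± 0.13) did not pass. Col18a1 stood at 11.9 CPM in library 15 and reached 5.70 CPM in the other striatal libraries. In wild-type libraries alone Col18a1 passed as higher in striatum (0.22 ± 0.08, adjusted p = 0.0357). The type 8 genes, whose short chains form networks beneath some endothelia, hung on library 15. Col8a1 ran from 2.89 to 4.37 CPM in frontal cortex. In striatum 14 libraries ran from 0.698 to 2.40 CPM, and library 15 had 20.3 CPM. With all libraries its log2 fold change was -0.64 ± 0.39 (adjusted p = 0.157), and without library 15 it was -1.38 ± 0.15 (adjusted p = 8.31e-09). Col8a2 had 16.0 CPM in library 15, 3.58 CPM in library 19 and at most 2.34 CPM in the other striatal libraries, and did not pass with it (0.85 ± 0.44, adjusted p = 0.0963) or without it (0.19 ± 0.28, adjusted p = 0.578). The 17 choroid plexus markers summed to 4790 CPM in library 15 and to 172 to 372 CPM in the other striatal libraries, and their part in these values was not tested.

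**Figure D3:**
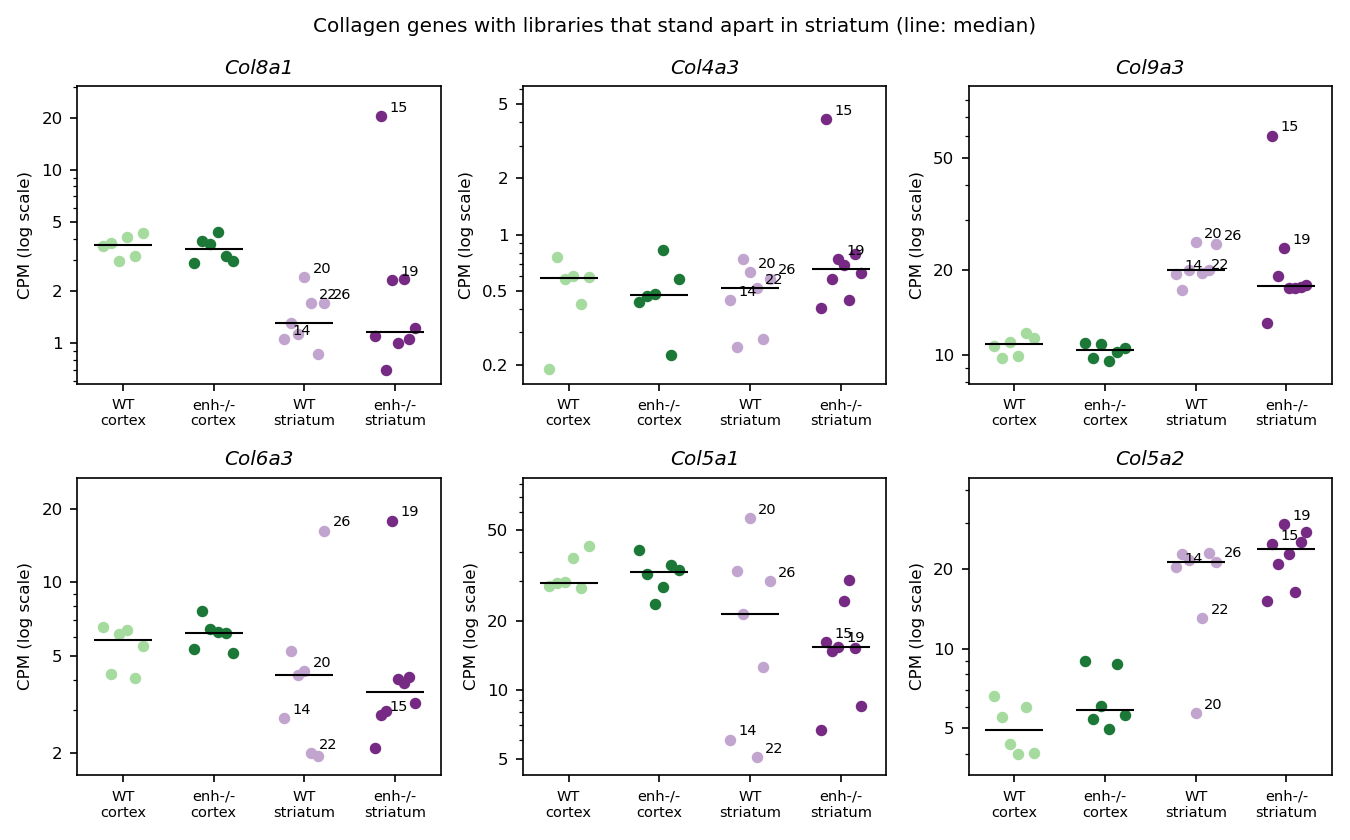
CPM per library on a log scale for 6 collagen genes with libraries that stand apart in striatum; each point is a library, lines are group medians, and striatal libraries 14, 15, 19, 20, 22 and 26 are numbered. Library 15 is the highest for Col8a1 (20.3 CPM), Col4a3 (4.16 CPM) and Col9a3 (59.9 CPM), libraries 19 and 26 for Col6a3, and library 20 is the highest for Col5a1 and the lowest striatal one for Col5a2.

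Effects of the enhancer deletion were tested within each region, with genotype and sex in the model, on the genes that reached 1 CPM in each of the region's libraries (edgeR's quasi-likelihood test). In frontal cortex 36 of the 43 collagen genes passed this level filter, and 0 of them passed an adjusted p of 0.05, beside 53 of all 13936 genes (0.38%). By the likelihood ratio test and DESeq2 1 gene passed, Col4a2, and with no filter on low counts 6 passed (Col1a1, Col1a2, Col3a1, Col4a2, Col6a1 and Col23a1), beside 1.39% of all 33060 genes in that fit. At an unadjusted p under 0.05 there were 8 by the quasi-likelihood test (8 and 6 by the other tools), all higher in Igf2enh-/- mice: Col4a2, Col3a1, Col1a1, Col1a2, Col23a1, Col5a3, Col5a2 and Col6a1. They were 22.2% of the 36 genes, beside 13.5% of all genes (1877 of 13936). Of the 36 genes, 25 had a log2 fold change (Igf2enh-/- over wild type) above 0 and 11 below, with a median of 0.11, where all genes had a median of 0.00. The median was 0.05 without library 1 and 0.07 without library 9, both Igf2enh-/-. In a separate model with all 43 genes included, 26 were above 0 and 17 below, with a median of 0.09. In striatum 30 collagen genes passed the filter and 0 passed the test, beside 5 of all 13875 genes (0.036%). The likelihood ratio test and DESeq2 also gave 0. An unadjusted p under 0.05 was met by 2 genes (2 by each tool), by the quasi-likelihood test Col1a1 and Col4a5, both higher in Igf2enh-/- mice. They were 6.67% of the 30 genes, beside 10.0% of all genes at that level. The median over the 30 genes was 0.05, with 20 above 0 and 10 below. It was 0.01 without library 15 and ran from 0.03 to 0.09 when each other library was left out.

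**Figure D4:**
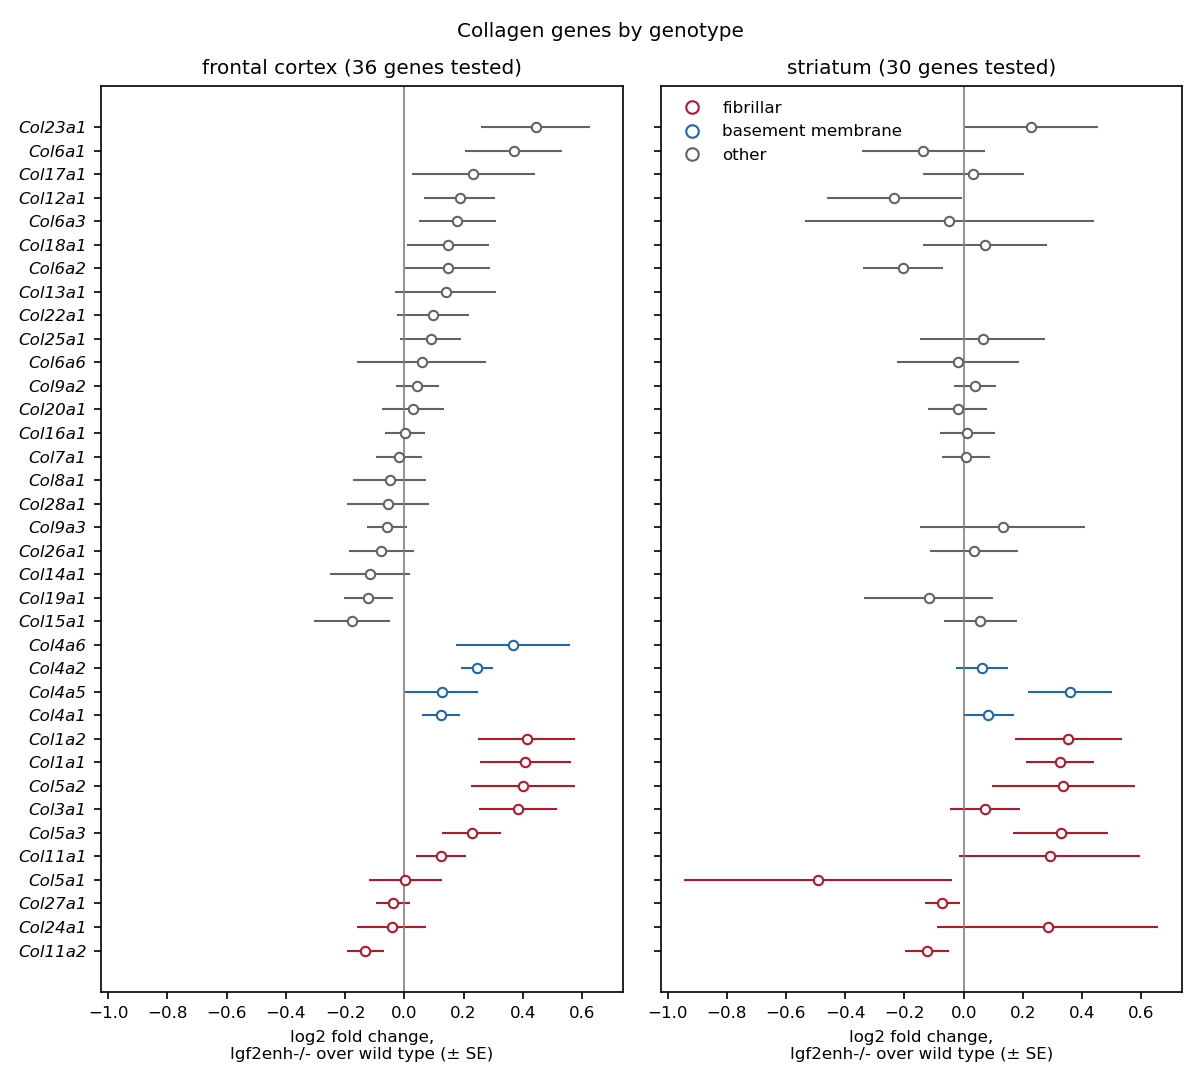
Log2 fold change of collagen genes, Igf2enh-/- over wild type, with its standard error, in frontal cortex (36 genes, left) and striatum (30 genes, right), for fibrillar (red), basement membrane (blue) and other (grey) genes. Open points mark that no gene passed an adjusted p of 0.05; in frontal cortex 25 points lie above 0.

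Col4a2 had the smallest genotype p of the collagen genes in frontal cortex. The wild-type libraries 2, 4, 6, 8, 10 and 12 stood at 94.6 to 113.3 CPM (median 107.5) and the Igf2enh-/- libraries at 114.3 to 136.5 CPM (median 124.5), so that the groups did not overlap. It was the 1 collagen gene of 43 whose groups were apart in frontal cortex, beside 0.931% of all genes. The log2 fold change was 0.25 ± 0.05, a ratio of 1.19, with an adjusted p of 0.0695. By edgeR's likelihood ratio test its adjusted p was 0.00602 and by DESeq2 0.00513, which call 232 and 242 of all genes, against 53. Leaving out each library in turn gave adjusted p values of 0.0533 to 0.165. Of the 16 endothelial markers 5 had log2 fold changes above 0 and 11 below. In Igf2enh-/- mice 1 passed as lower, beside 0.38% of all genes that passed in either direction. The part of these markers in the Col4a2 value was not tested. Its neighbour Col4a1 ran from 70.2 to 82.9 CPM in wild-type and from 70.5 to 90.2 CPM in Igf2enh-/- frontal cortex, which overlap, with a log2 fold change of 0.12 ± 0.06, adjusted p = 0.416. In striatum the values for Col4a2 were 65.6 to 89.7 CPM and 70.3 to 93.1 CPM, and the log2 fold change was 0.06 ± 0.09, adjusted p = 0.874. In striatum 0 collagen genes had groups apart, beside 0.178% of all genes.

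The fibrillar genes of types 1 and 3 had the next smallest p in frontal cortex. Col3a1 lay between 3.46 and 7.35 CPM in wild-type libraries (median 4.82) and between 5.54 and 8.25 CPM in Igf2enh-/- libraries (median 6.09), with a log2 fold change of 0.38 ± 0.13, adjusted p = 0.226. Col1a1 ran from 6.52 to 15.7 CPM (median 9.51) and from 10.8 to 17.9 CPM (median 12.3), a log2 fold change of 0.41 ± 0.15, adjusted p = 0.259. Col1a2, at 13.3 to 30.8 CPM (median 18.1) and 20.8 to 37.5 CPM (median 24.6), had 0.41 ± 0.16, adjusted p = 0.288. In these 3 genes library 2 was the highest wild-type and library 1 the highest Igf2enh-/- library, both females, and the other wild-type libraries reached at most 5.12, 10.0 and 23.2 CPM. The groups overlapped through library 2 for Col3a1 and Col1a1. Of the 17 meningeal fibroblast markers tested in frontal cortex, 16 had log2 fold changes above 0 and 0 passed. Summed over the list's 20 markers, levels ran from 125 to 244 CPM in wild-type and from 159 to 233 CPM in Igf2enh-/- mice. The highest of each group were again libraries 2 and 1. The part of these markers in the fibrillar values was not tested.

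**Figure D5:**
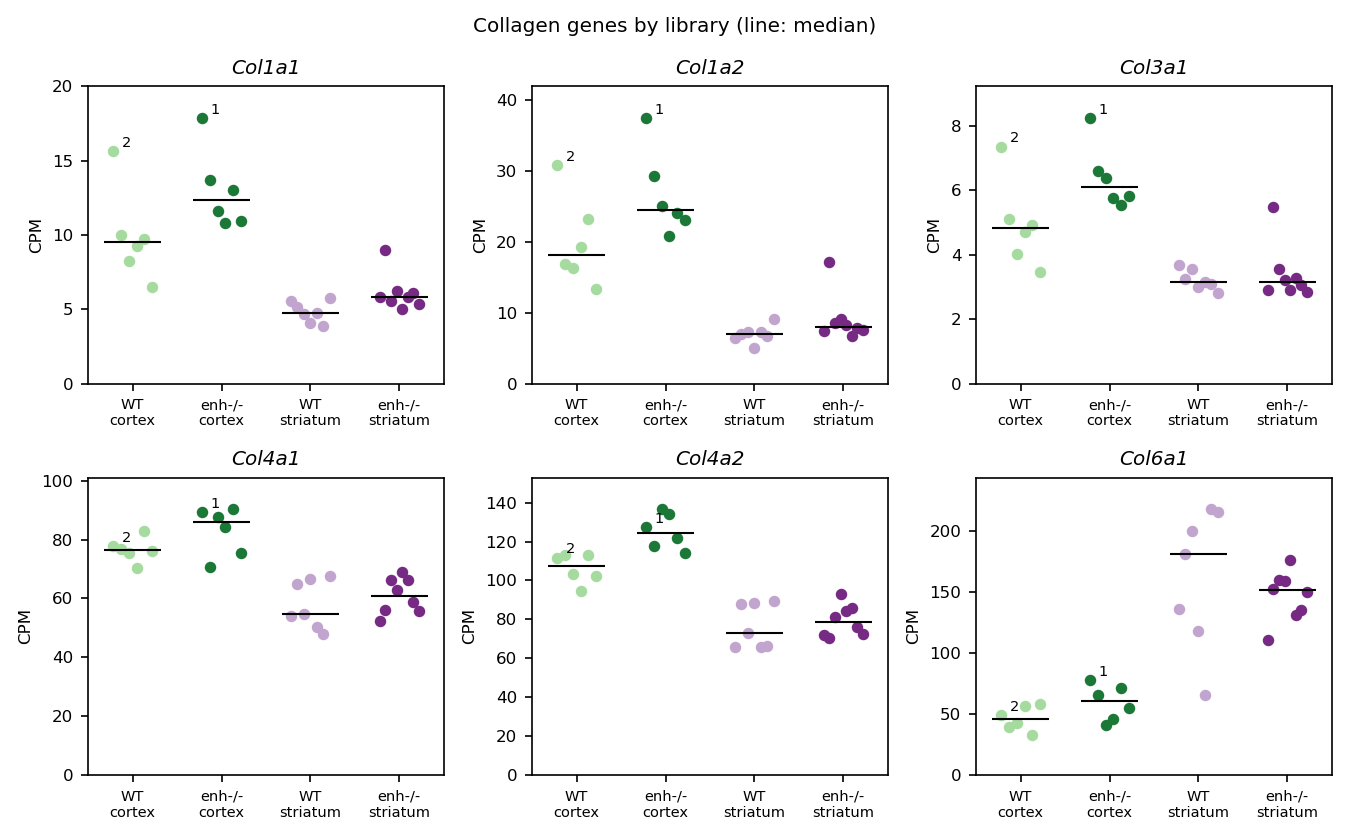
CPM per library for 6 collagen genes in wild-type (WT) and Igf2enh-/- (enh-/-) frontal cortex and striatum; each point is a library, lines are group medians, and libraries 1 and 2 are numbered. Libraries 1 and 2 are the highest of their groups for Col1a1, Col1a2 and Col3a1, and for Col4a2 the 6 Igf2enh-/- frontal cortex libraries start at 114.3 CPM, above the wild-type maximum of 113.3 CPM.

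Among the other types in frontal cortex, Col23a1, a transmembrane collagen, had the smallest p. It ran from 6.60 to 9.92 CPM in wild-type and from 7.61 to 15.3 CPM in Igf2enh-/- mice, a log2 fold change of 0.44 ± 0.18, adjusted p = 0.313. Col6a1 ran from 33.0 to 58.0 CPM and from 41.5 to 78.3 CPM, at 0.37 ± 0.16, adjusted p = 0.344.

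In striatum Col1a1 had the smallest genotype p. Wild-type libraries stood between 3.85 and 5.73 CPM (median 4.74) and Igf2enh-/- libraries between 4.99 and 8.96 CPM (median 5.81), with library 15 the highest. The log2 fold change was 0.33 ± 0.11, adjusted p = 0.370, and 0.24 without library 15 (adjusted p = 0.432). Col5a3 had a log2 fold change of 0.33 ± 0.16, adjusted p = 0.518. Col4a5 ran from 3.60 to 5.63 CPM in wild-type and from 4.38 to 8.37 CPM in Igf2enh-/- mice, again with library 15 the highest, at 0.36 ± 0.14, adjusted p = 0.426, and 0.26 ± 0.10 without library 15 (adjusted p = 0.495). Col4a1 had 0.08 ± 0.09, adjusted p = 0.807. Of the other types, Col6a2 had -0.20 ± 0.14 (adjusted p = 0.677) and Col12a1 -0.23 ± 0.23 (adjusted p = 0.794).

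Whether the genotype effect differed between the regions was tested with the region by genotype term. It passed for 0 of the 43 collagen genes and for 0% of all 22982 genes, by edgeR's quasi-likelihood and likelihood ratio tests and by DESeq2. Among collagen genes 0 met an unadjusted p under 0.05, against 724 of all genes by the quasi-likelihood test. The smallest unadjusted p of a collagen gene was that of Col4a4, 0.0809, with an interaction of 1.11 ± 0.61 on the log2 scale. Without library 15 Col4a4 had 0.46 ± 0.32 (unadjusted p = 0.158). The smallest unadjusted p was then that of Col3a1, 0.0133 (-0.42 ± 0.16), the 1 collagen gene under 0.05, and again 0 passed by edgeR's quasi-likelihood test (adjusted p = 1).

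The sex term (male over female) passed for 0 collagen genes in either region, beside 0.0431% of all genes in frontal cortex and 0.0432% in striatum. At an unadjusted p under 0.05 there were 10 collagen genes in frontal cortex, 4 higher and 6 lower in males, and 2 in striatum. These were 27.8% and 6.67% of the collagen genes tested, beside 7.56% and 10.8% of all genes. The smallest p in frontal cortex was that of Col11a2, with a log2 fold change of 0.25 ± 0.06, adjusted p = 0.440. Col3a1 had -0.32 ± 0.13 and Col1a1 -0.36 ± 0.15 there, and of the 17 meningeal fibroblast markers tested all 17 had values below 0 and 8 met the unadjusted level.

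Collagen chains are modified and folded in the endoplasmic reticulum, trimmed of their propeptides outside the cell, cross-linked, bound by receptors and degraded. Genes of these steps and partners of collagen in basement membranes were read from a list of 77 symbols. Beside the shares of all genes given above (0.38% in frontal cortex, 0.036% in striatum), 65 were tested for genotype in frontal cortex and 1 passed, Lama4, the laminin chain of vessel basement membranes. It ran from 11.9 to 16.1 CPM in wild-type and from 8.17 to 9.99 CPM in Igf2enh-/- frontal cortex, without overlap. The log2 fold change was -0.54 ± 0.07, adjusted p = 0.00449. The cause of this difference, whether the deletion or another difference between the mice, was not tested. In striatum Lama4 ran from 5.67 to 14.9 CPM and from 3.60 to 7.27 CPM, with -0.64 ± 0.18, adjusted p = 0.252. There 0 of 64 genes of the list passed. An unadjusted p under 0.05 was met by 13 genes in frontal cortex (12 higher in Igf2enh-/- mice) and 5 in striatum, which were 20.0% and 7.81% of the list beside 13.5% and 10.0% of all genes. Mmp14, a membrane-bound collagenase, had the smallest p in striatum, where it ran from 6.66 to 9.35 CPM in wild-type and from 8.13 to 14.0 CPM in Igf2enh-/- mice (0.41 ± 0.10, adjusted p = 0.174). In frontal cortex Mmp14 had 0.50 ± 0.11, adjusted p = 0.0651.

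Between the regions 73 genes of the list were tested, and 29 were higher in striatum and 22 in frontal cortex. Together these were 69.9% of the list, beside 63.7% of all genes (32.2% higher in striatum and 31.5% in frontal cortex). Among 17 genes of hydroxylation and folding, 7 were higher in striatum and 4 in frontal cortex, with P4hb (0.39 ± 0.03), a subunit of prolyl hydroxylase, and Colgalt2 (-1.20 ± 0.09), a collagen galactosyltransferase, at the smallest p. Among 8 genes of propeptide removal, Adamts3, a procollagen N-proteinase, ran from 8.48 to 12.0 CPM in frontal cortex and from 19.3 to 49.1 CPM in striatum (1.98 ± 0.10, adjusted p = 3.59e-15), and Bmp1, a procollagen C-proteinase, was lower in striatum (-1.07 ± 0.13, adjusted p = 4.52e-08). Of the 7 cross-linking genes, Pxdn, the peroxidase that links type 4 collagen, ran from 38.5 to 63.6 CPM in frontal cortex and from 87.4 to 183 CPM in striatum (1.48 ± 0.10, adjusted p = 4.20e-13), opposite in direction to Col4a1 and Col4a2. Lox, a lysyl oxidase, was lower in striatum (-0.44 ± 0.17, adjusted p = 0.0272). Of the 12 receptors, Ddr1 was higher in striatum (0.70 ± 0.04) and Mrc2, which takes up collagen fragments, higher in frontal cortex (-0.97 ± 0.07). Timp3, an inhibitor of matrix proteases, was higher in striatum (0.30 ± 0.06), and Mmp9, a gelatinase, higher in frontal cortex (-1.59 ± 0.19). Of the 17 basement membrane partners 6 were higher in each region, among them Lamc1 (0.53 ± 0.04), a laminin chain, in striatum and Agrn (-0.23 ± 0.03), a heparan sulfate proteoglycan, in frontal cortex.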

How the data were processed

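RNA of 27 mouse libraries, ribosomal RNA removed, had been sequenced as single-end reads. Per the labels and the study's methods, reads were trimmed (Trim Galore 0.5.0) and aligned to GRCm38 by STAR with a GENCODE annotation, and the authors deposited raw read counts per gene for each region. Whether counting used strand is not given in the sources used here, so overlapping genes could share counts. The tables held 0 columns of other series. No normalization had been applied by the authors, and library totals set the precision.

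Of 52636 identifiers, 32688 had a symbol, matched by Ensembl identifier. Transcript lengths are from GENCODE vM1 and positions from RefSeq (GRCm38.p6). After TMM scaling, edgeR 4.0.16 under R 4.3.3 gave two-sided quasi-likelihood tests, adjusted by Benjamini-Hochberg over all genes tested. Genotype was fitted per region with sex as a covariate, after a filter of 1 CPM in every library. Region and interaction came from 1 fit over 27 libraries, with a mean of the regional mean CPM values of at least 0.05. CPM in the text are TMM-scaled over 27 libraries. Other settings tried were DESeq2 1.42.0, its size factors within edgeR, the likelihood ratio test, other filters and terms, and fewer libraries. Genes are named in the text for the smallest p per class and direction, for a passed test or for a library that stands apart. The collagen members, gene lists and markers were chosen with earlier results of these data known. Tests were checked on simulated data.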

Additional observations from a re-analysis of the deposited data

Results flagged for a closer look

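In 27 of 172 gene and group combinations, the highest or lowest library stood apart from the rest of its group by Dixon's test on log2(CPM + 0.5), where chance gives about 1 in 20. These concerned 23 collagen genes, and 10 of the 27 lay in library 15 and 5 in library 19, both Igf2enh-/- striatum.

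Library 15 stood apart above the other 7 Igf2enh-/- striatal libraries for 10 genes. The network collagen Col8a1 stood at 20.3 CPM, where the others reached 2.33 CPM, and Col9a3 at 59.9 CPM against at most 24.0 CPM. The basement membrane genes Col4a3, Col4a4 and Col4a6 stood at 4.16, 5.93 and 2.36 CPM, where the others reached 0.791, 1.40 and 1.42 CPM. The fibrillar genes Col1a1, Col1a2 and Col3a1 stood at 8.96, 17.1 and 5.49 CPM, above 6.21, 9.09 and 3.57 CPM. Col13a1 and Col18a1 stood at 2.03 and 11.9 CPM, above 1.09 and 5.70 CPM. The choroid plexus marker sum of this library was 4790 CPM, and its part in these values was not tested.

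Library 19 stood apart above the rest of the same group for 5 genes. Col6a3 stood at 17.9 CPM, Col6a5 at 7.80 CPM and Col6a6 at 2.73 CPM, where the others reached 4.12, 2.40 and 1.68 CPM, and Col25a1 at 112.7 CPM and Col9a1 at 1.81 CPM, where they reached 67.9 and 0.691 CPM. In library 13 of this group Col16a1 (15.1 CPM) and Col27a1 (14.3 CPM) were low, under the next values of 19.9 and 16.9 CPM.

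In wild-type striatum Col5a2 was low in library 20 (5.71 CPM, next 13.0), Col28a1 was low in library 22 (0.138 CPM, next 0.767) and Col6a5 was high in library 26 (6.34 CPM, next 1.69). Library 26 also held 16.3 CPM of Col6a3, 2.71 CPM of Col6a6 and 114.7 CPM of Col25a1, near the values of library 19, though Dixon's test did not flag them. Col9a1 stood at 0.931 CPM there. In Igf2enh-/- frontal cortex library 1 was high for Col4a6 (4.68 CPM, next 2.45), Col6a5 (2.42 CPM, next 1.35) and Col9a1 (1.15 CPM, next 0.739), library 3 was low for Col5a3 (3.23 CPM, next 4.03) and library 7 low for Col17a1 (1.06 CPM, next 2.33). In wild-type frontal cortex library 2 was high for Col22a1 (5.32 CPM, next 3.80) and library 12 for Col11a1 (16.9 CPM, next 14.8).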

How the results depend on the processing

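In frontal cortex the count of collagen genes that passed for genotype was 0, and it was 1 by the likelihood ratio test, 1 by DESeq2 and 6 with no filter on low counts (Col1a1, Col1a2, Col3a1, Col4a2, Col6a1 and Col23a1). The count of collagen assembly genes that passed there was 1, and it was 5 by the likelihood ratio test, 4 by DESeq2, 6 with no filter and 1 to 3 when each library was left out in turn (2 without library 1 or 3, and 3 without library 7). In striatum it was 0, and 1 by either of the likelihood ratio test and DESeq2. Of all genes, 0.38% passed in frontal cortex, 1.66% by the likelihood ratio test, 1.74% by DESeq2 and 1.39% with no filter. In striatum 0.036% of all genes passed, 0.404% by the likelihood ratio test and 0.807% by DESeq2. The count for sex in frontal cortex was 0, and 2 with no filter. The cause of these changes was not tested. The median genotype log2 fold change ran from 0.05 (without library 1) to 0.14 in frontal cortex and from 0.01 (without library 15) to 0.09 in striatum when each library was left out. Leaving out libraries 15 and 20 together was chosen after seeing the data. The 42 single-gene results were the 30 region calls and the genotype results with the smallest p of each class and region. Of these 42, 29 kept their call and direction under every alternative run, and 0 reversed. Genes outside this set could change sign: the striatal genotype log2 fold change of Col9a3 was 0.13, and -0.20 without library 15. Region calls were lost for Col2a1, Col5a1, Col7a1, Col24a1 and Col25a1 in wild-type libraries alone, for Col14a1 and Col4a5 in Igf2enh-/- libraries alone and for Col5a3 in either. Col8a1 and Col18a1 gained a call in wild-type libraries alone (adjusted p = 3.31e-05 and 0.0357 by the quasi-likelihood test). No paired analysis was possible because the labels do not tie libraries of the regions to the same mouse. The region and interaction tests thus treated the 27 libraries as independent. Genes under about 1 CPM rest on few counts, which limits what their values can show.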
